A study of Schizosaccharomyces pombe with 4 samples.

Results

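Splicing and reads per gene were compared between the splicing mutant prp2-1 and wild-type cells of the fission yeast Schizosaccharomyces pombe, each kept at 37 °C before harvest. The comparison used every read of the 2 libraries with these labels, 33746 aligned reads from prp2-1 and 32176 from wild type, together 65922 of the 234996 reads in the 4 libraries of the study. Each read is a single long cDNA copy of nuclear RNA depleted of polyadenylated and ribosomal RNA, and shows which of the introns it crosses had been removed. In a read of nascent RNA the 3′ end lies near the polymerase. Not every read need be nascent, which was not tested. Small nucleolar RNA genes held 11.2% of prp2-1 and 8.18% of wild-type reads. The wild type was strain L972 (h-). The mutant strain was labelled prp2-1, with the genotype leu1.32 prp2-C387Y. It therefore also carried a leucine marker that the wild type lacked, and the marker and the prp2 allele cannot be told apart here. Cultures started from single colonies, were grown at 26 °C and were shifted to 37 °C for 2 hours. Wild-type cells grown at 30 °C gave the other 2 libraries, replicate 1 from L972 (h-) and replicate 2 from SP286 (h+), in which the prp5 gene is wild type and tagged with a KanMx marker. They serve here as a measure of how far 2 wild-type libraries lay apart, but were less alike in make-up than the 37 °C pair. Their median read spans were 256 nt in replicate 1 and 436 nt in replicate 2, with 50.1% and 71.3% of reads assigned to coding genes. In prp2-1 and wild type at 37 °C the spans were 771 and 890 nt and the coding shares 74.3% and 80.7%. The part of make-up in the distances below was not tested.

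prp2 encodes the large subunit of U2AF, a heterodimer that binds the pyrimidine-rich stretch ahead of the 3′ end of an intron. Its small subunit, Uaf2, contacts the terminal AG, and the branch point binding protein Bpb1 sits upstream of them. Together these proteins mark the 3′ end of an intron before the U2 snRNP joins. Introns of fission yeast are short, and many lack a long pyrimidine tract. Of the 5186 introns of protein-coding genes annotated on ASM294v3, the median length was 56 nt and 44.4% held the branch motif CTAAC in the 40 nt before the terminal AG.

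Each condition at 37 °C had 1 library, so the tests below compare sets of reads, with no check against independent cultures, and all intervals cover counting error only. By the prefixes of their read names, both libraries came from the same 6 sequencing cells. These cells sequenced the same libraries again, so they are not replicates and agreement among them says nothing about other cultures. They shared 3769 read names, and 5812 names occurred more than once within or between them, which touched 20.1% of prp2-1 reads and 16.2% of wild-type reads. None of these names had the same alignment in both files. Main results are therefore given with and without reads of such names, and within sequencing cells. The gene named by the mutant's label gave 4 reads in prp2-1 and 7 in wild type, with 7 and 5 in the 30 °C replicates. Its splicing partners were as thinly covered, with 0 and 1 reads of uaf2 and 3 and 1 of bpb1, and leu1 had 7 in prp2-1 and 5 in wild type. The aligned blocks hold no bases, so the allele could not be read.

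Fewer introns had been removed in the prp2-1 library than in the wild-type library. A crossing was scored when a read reached at least 10 nt past both ends of an intron. It was called spliced if a gap matched both splice sites within 5 nt, and unspliced if at least 90% of the intron was aligned. In prp2-1 2716 of 8723 crossings were spliced and in wild type 5896 of 11311. These spliced shares were 31.1% (30.2 to 32.1) and 52.1% (51.2 to 53.0, 95% Wilson intervals). The crossings came from 5473 and 6615 reads, and introns of 1 read are not independent. Intervals on crossings are therefore too narrow, which the comparison of whole reads below avoids. The difference was -21.0 percentage points (95% Newcombe interval -22.3 to -19.6), and -21.2 without repeated read names. Within single sequencing cells it lay between -23.0 and -18.9, lower in prp2-1 in 6 of 6 cells. The 30 °C wild-type replicates differed from each other by -18.8 points (-20.02 to -17.6), with 67.3% in replicate 1 and 48.5% in replicate 2. The difference between prp2-1 and wild type was thus close in size to the distance between 2 wild-type libraries.

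When whole reads were compared within the same gene and the same set of crossed introns, the common odds ratio of a read having all its introns removed was 0.352 in prp2-1 against wild type (95% Mantel-Haenszel interval 0.319 to 0.389; 1454 informative strata). It was 0.344 (0.308 to 0.383) without repeated names and between 0.308 and 0.429 within cells. For replicate 2 against replicate 1 at 30 °C it was 0.413 (0.382 to 0.447). Of the 1392 genes with a crossing read in both 37 °C libraries, 813 had a lower share of fully spliced reads in prp2-1, 240 a higher share and 339 the same.

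**Figure D1:**
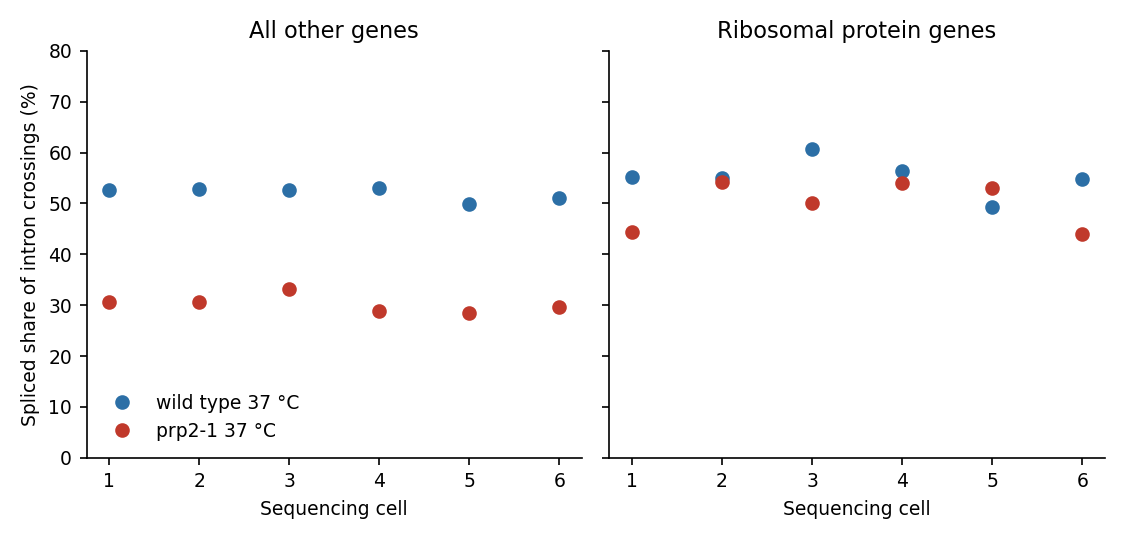
Spliced share of intron crossings (percent, y axis) in each of the 6 sequencing cells (x axis) that carried both 37 °C libraries, with genes of ribosomal proteins apart from all other genes. For the other genes prp2-1 lies below wild type in 6 of 6 cells, whereas for ribosomal protein genes it is lower in 5 of 6 and the difference runs from -10.7 to 3.77 points.

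Single genes had few reads, and 56 had at least 10 crossing reads in both libraries. The share of fully spliced reads was lower in prp2-1 in 46 of them and higher in 10, with a median difference of -16.6 percentage points. Fisher's exact test (two-sided, Benjamini-Hochberg over the 56) called 10 genes lower at an adjusted p under 0.05, which is 17.9% of those tested, and 0 higher. At an unadjusted p under 0.05 there were 13. Without repeated read names 34 genes could be tested, 29 were lower, and gnd1 and put2 remained called. Of the other called genes, rps3, nda3, pex7 and tbp1 then had too few reads to test. cct6, gua1, wos2 and pss1 lost their call, with adjusted p from 0.0582 to 0.0721 in Fisher's exact test. With at least 5 reads required, gnd1 alone of the 10 stayed called.

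**Figure D2:**
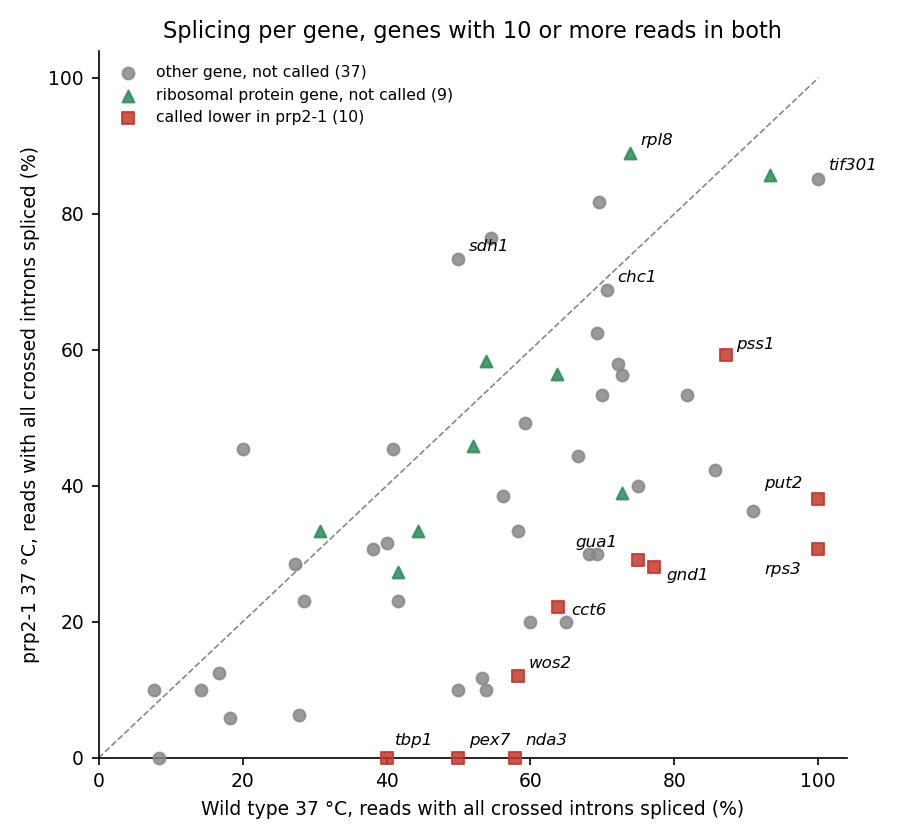
Share of reads with all crossed introns spliced in wild type (x axis, percent) and prp2-1 (y axis, percent), 1 point for each of the 56 genes with at least 10 crossing reads in both; the dashed line marks equal shares. The 10 called genes (squares) all lie below the line, with tbp1, pex7 and nda3 at 0% in prp2-1, and rpl8 and sdh1 lie above it.

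In 3 of the called genes no fully spliced read was found in the mutant. The TATA-binding protein gene tbp1 (SPAC29E6.08, chromosome I, 4415479 to 4417151, plus strand, 3 introns) had 0 of 41 fully spliced reads in prp2-1, which allows a share of up to 7.32%. Wild type had 4 of 10, and the 30 °C replicates 13 of 26 and 2 of 12 (adjusted p = 0.0214, Fisher's exact test). The patterns of single reads were nearly uniform, since 18 of the 19 prp2-1 reads crossing all 3 introns kept every intron, whereas 3 of 6 such wild-type reads had lost every intron. Intron by intron, 0 of 38, 2 of 34 and 1 of 22 prp2-1 reads were spliced, against 3 of 9, 5 of 7 and 6 of 7 in wild type. tbp1 also had more reads in the mutant, 48 against 16, or 2.92 times as many per assigned read (exact counting interval 1.63 to 5.52).

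nda3 (SPBC26H8.07c, chromosome II, 3964092 to 3965973, minus strand, 5 introns), which encodes beta-tubulin, had 0 fully spliced reads of 10 in prp2-1, which allows up to 30.0%, and 11 of 19 in wild type (adjusted p = 0.0326, Fisher's exact test). At 30 °C it had 10 of 20 and 3 of 12. Its most frequent read in wild type, found 8 times, crossed the first 4 introns with all of them removed. In prp2-1 the most frequent read kept the same 4 introns and was found 4 times. pex7 (SPAC17D4.01, chromosome I, 4722784 to 4724645, plus strand, 2 introns), the receptor for a class of peroxisomal proteins, had 0 of 15 in prp2-1, which allows up to 20%, and 5 of 10 in wild type (adjusted p = 0.0348, Fisher's exact test). At 30 °C it had 6 of 8 and 4 of 8. Its first intron was spliced in 1 of 14 prp2-1 reads and 8 of 9 wild-type reads.

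Genes of protein folding were among the others called. cct6 (SPBC646.11, chromosome II, 942907 to 944922, plus strand, 3 introns), a subunit of the chaperonin that folds actin and tubulin, had 6 of 27 fully spliced reads in prp2-1 and 23 of 36 in wild type (adjusted p = 0.0214, Fisher's exact test). Its 30 °C values were 14 of 20 and 5 of 10. Wild-type reads over its 3 introns were mostly all or nothing, with 23 all spliced, 9 all unspliced and 2 mixed. Of the prp2-1 reads over all 3 introns, 5 were all spliced, 5 all unspliced and 13 mixed. wos2 (SPAC9E9.13, 1 intron), a p23 co-chaperone of Hsp90, had 3 of 25 in prp2-1 and 7 of 12 in wild type (adjusted p = 0.0353, Fisher's exact test), and 19 of 30 and 9 of 16 at 30 °C. pss1 (SPAC110.04c, 1 intron in the 5′ UTR), a heat shock protein, had 32 of 54 and 34 of 39 (adjusted p = 0.0348, Fisher's exact test), and 34 of 39 and 19 of 20 at 30 °C. In every called gene except gnd1 the fully spliced share in prp2-1 was below those of all 3 wild-type libraries.

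The remaining called genes encode metabolic enzymes and a ribosomal protein. gnd1 (SPBC660.16, 4 introns, on the plus strand of chromosome II from 230322 to 233218), the phosphogluconate dehydrogenase of the pentose phosphate pathway, had 7 of 25 fully spliced reads in prp2-1 and 27 of 35 in wild type (adjusted p = 0.0117, Fisher's exact test). Its 30 °C replicates had 24 of 88 and 10 of 15, so its level in prp2-1 was also that of wild-type replicate 1. put2 (SPBC24C6.04, 1 intron in the 5′ UTR), an enzyme of proline breakdown, had 8 of 21 and 10 of 10, and 24 of 37 and 7 of 12 at 30 °C. gua1 (SPBC2F12.14c, 1 intron), the IMP dehydrogenase of guanine nucleotide synthesis, had 7 of 24 and 12 of 16, and 19 of 20 and 16 of 22 at 30 °C. rps3 (SPBC16G5.14c, 1 intron), a protein of the small ribosomal subunit, had 4 of 13 and 10 of 10. Their adjusted p values were 0.0214, 0.0497 and 0.0214 in Fisher's exact test. At 30 °C the fully spliced reads of rps3 numbered 69 of 74 in replicate 1 and 6 of 13 in replicate 2, so 2 wild-type libraries also lay far apart in this gene.

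At the level of single introns, 68 had at least 10 scored reads in both libraries and 55 of them had a lower spliced share in prp2-1. Fisher's exact test called 9 lower, 13.2% of those tested, and 0 higher. Without repeated names 0 of 45 were called, and 11 of the 45 had an unadjusted p under 0.05. The called introns included introns 2, 3 and 4 of gnd1, which share reads and are not independent. The others were intron 1 of nda3, the single introns of put2, rps3, pss1 and wos2, and intron 2 of pac3, a proteasome assembly chaperone gene. The last of these lies in the 3′ UTR and was spliced in 2 of 10 prp2-1 reads and 13 of 16 wild-type reads. At 30 °C it was spliced in 17 of 19 and 8 of 11 reads.

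The ends of these introns are shown because U2AF binds there. Each line gives the last 30 nt of an intron on the RNA strand, read 5′ to 3′ from ASM294v3, with the terminal AG and, where present, the motif CTAAC in capitals.
nda3 intron 1 (II:3965877-3965912, minus strand): gctattttaatattcaaagctaatcaatAG
rps3 intron 1 (II:4239039-4239290, minus strand): tgcttctttctaaagtactgaccaatttAG
put2 intron 1 (II:2325119-2325233, plus strand): ttttatttatgcgatattaatacttattAG
pac3 intron 2 (II:1923541-1923599, plus strand): cgattgaatCTAACaagttttttttcttAG
wos2 intron 1 (I:4468769-4468967, minus strand): tattagtgcttgttaCTAACattcgtttAG
gnd1 intron 2 (II:230451-230615, plus strand): gcggtctggtttattaactttttgccaaAG
gnd1 intron 3 (II:230680-231496, plus strand): tcgaatgtgaatatgCTAACatcattgtAG
gnd1 intron 4 (II:231565-231736, plus strand): tttatttggCTAACggttctttttcttcAG
pss1 intron 1 (I:1920202-1920606, minus strand): tttgttgcggaatttattaCTAACttttAG
tbp1 intron 1 (I:4415750-4416004, plus strand): accttattactaataatcctcttaaaatAG
tbp1 intron 2 (I:4416066-4416117, plus strand): tgtttgaggtctgttattgaccaaacatAG
tbp1 intron 3 (I:4416379-4416448, plus strand): acgaataagtatCTAACtgttcttttttAG
The 9 called introns held the motif in 5 cases, against 44.4% of all annotated introns, and 7 ended in TAG, against 68.6% of all. Pyrimidines made up 45 to 75% of the 20 nt before the AG, around the annotation's median of 60%. tbp1 is shown as the gene whose introns stayed in most reads. Its introns 1 and 2 lacked the exact motif, as did intron 1 of nda3, but tbp1 intron 3 and nda3 intron 2, spliced in 1 of 22 and 0 of 9 prp2-1 reads, held it, as did both introns of pex7.

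Some genes kept high shares of fully spliced reads in the mutant. Among genes with at least 15 reads in both libraries, the 6 highest shares in prp2-1 were those of rpl8, tif301, sdh1, chc1, SPAP8A3.07c and pss1. rpl8 (SPBC29A3.04), a protein of the large ribosomal subunit, had 16 of 18 in prp2-1 and 31 of 42 in wild type. tif301, a subunit of translation initiation factor eIF3, had 23 of 27 and 21 of 21, and sdh1, of succinate dehydrogenase, 11 of 15 and 9 of 18. The clathrin heavy chain gene chc1 had 11 of 16 and 12 of 17, and SPAP8A3.07c, annotated as an aldolase of aromatic amino acid synthesis, 10 of 16 and 18 of 26. In these 5 genes the difference was not called, with adjusted p between 0.308 and 1 in Fisher's exact test. The intervals of the difference were wide, from -9.19 to 31.98 points for rpl8 and -32.5 to 3.03 for tif301. They ran from -31.0 to 27.4 for chc1 and -34.5 to 20.3 for SPAP8A3.07c. Falls of the size seen in other genes were thus covered for tif301, chc1 and SPAP8A3.07c. Choosing genes by their prp2-1 share favours small falls, so the lack of a call is not a separate result. pss1 was named both here and among the called genes, since its share in prp2-1 was high and in wild type higher still.

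The 3′ ends of introns in these genes are shown for comparison, marked as above.
rpl8 intron 1 (II:2045498-2045563, plus strand): taaaaaccagtctatCTAACataaatgtAG
tif301 intron 1 (II:3314377-3314421, plus strand): tttttacttactttgaCTAACataaattAG
sdh1 intron 1 (I:3798227-3798347, minus strand): aacagttttctaaacaatCTAACaatgtAG
chc1 intron 1 (I:3339178-3339217, plus strand): aatgttgttaataaacgctaatgcttgtAG
chc1 intron 2 (I:3339292-3339347, plus strand): ttacttgtttgCTAACtactatacgtgtAG
SPAP8A3.07c intron 1 (I:5327830-5328100, minus strand): aatgtcaatttgCTAACattattcaattAG
Of the 7 introns in the 6 genes, pss1 included, 6 held the motif and 7 ended in TAG. Their median pyrimidine share was 55% against 60% in the called introns. The shares of all annotated introns with each feature are those given above, and the sets are too small to set apart.

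No tested feature of the introns themselves passed the test for a different odds ratio. Common odds ratios over introns, with 1 crossing drawn per read, were compared between classes in 9 contrasts adjusted together (a two-sided normal test on the log scale). Introns longer than 100 nt had an odds ratio of 0.381 and shorter ones 0.383, with a ratio of 0.993 (0.816 to 1.21). The ratio was 0.926 (0.697 to 1.23) for first against later introns and 1.17 (0.962 to 1.41) for introns of single-intron genes against the rest. It was 0.887 (0.602 to 1.31) for UTR against coding introns. These 4 contrasts all had adjusted p values of 0.415 or more.

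The signals at the intron ends did not pass either. Introns starting with GTATGT had an odds ratio of 0.371 against 0.387 for all others. With CTAAC before the AG it was 0.410 (0.360 to 0.467) and without it 0.355 (0.308 to 0.408), a ratio of 1.16 (0.954 to 1.40). A share of pyrimidines above the median gave a ratio of 0.947 (0.779 to 1.15) to the lower share, and TAG against other 3′ ends 0.939 (0.756 to 1.17). Adjusted p was 0.415 or more for each of these, so a difference was not detectable at this depth, and the bounds given are those of the differences that remain possible. The GTATGT contrast had a ratio of 0.958 (0.772 to 1.19).

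Finer classes are described without a test. By length, the odds ratio was 0.302 (0.231 to 0.395) for introns of up to 45 nt, 0.404 for 46 to 60 nt, 0.416 for 61 to 100 nt, 0.370 for over 100 and up to 200 nt and 0.391 for longer ones. By 5′ splice site, it was 0.443 (0.381 to 0.516) for GTAAGT, 0.226 (0.129 to 0.395) for GTACGT and 0.286 (0.231 to 0.355) for introns with none of the 5 sequences counted apart. Introns with at least 70% pyrimidines had the lowest odds ratio of the 4 pyrimidine classes, 0.304 (0.247 to 0.375). In 3′ UTRs 6 of 36 crossings were spliced in prp2-1 and 19 of 46 in wild type, and in 5′ UTRs 140 of 389 and 199 of 360. Between the 30 °C replicates the odds ratio was 0.277 for introns over 200 nt and 0.999 for introns of 5′ UTRs, against 0.391 and 0.367 in the mutant comparison.

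**Figure D3:**
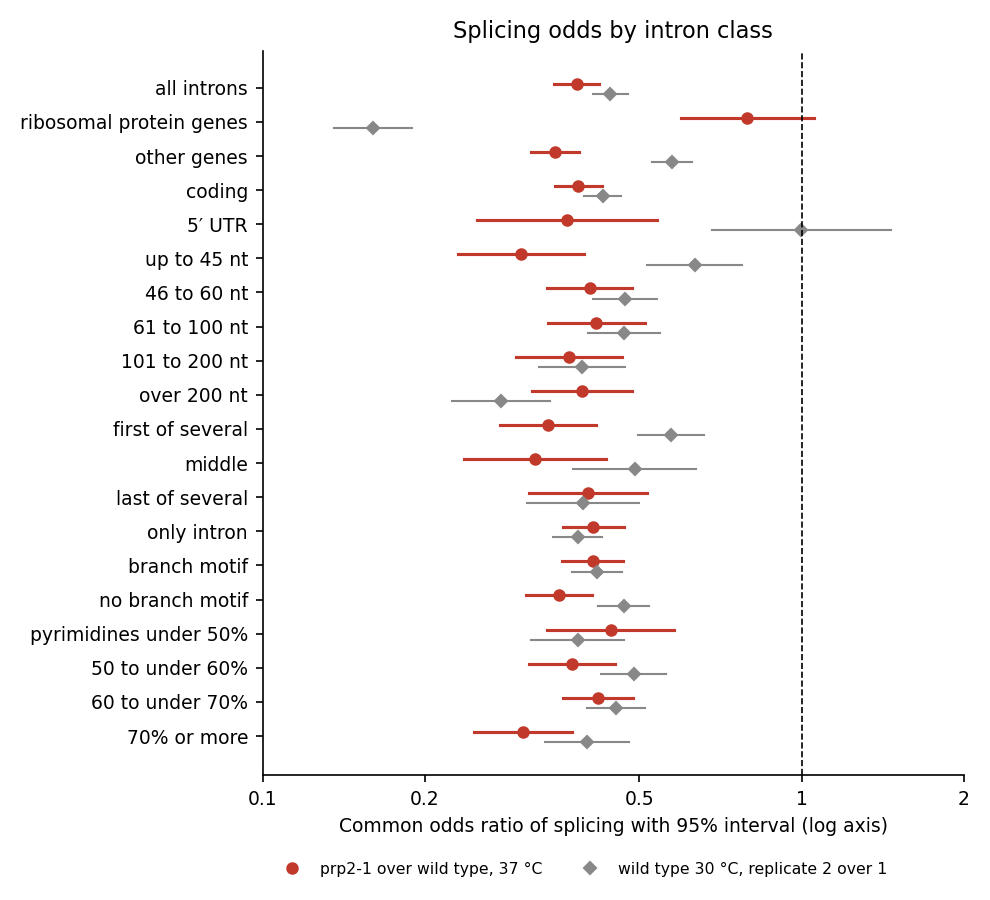
Common odds ratio of splicing by intron class (log axis, bars are 95% intervals) for prp2-1 over wild type at 37 °C (circles) and for replicate 2 over replicate 1 of wild type at 30 °C (diamonds). Of the classes drawn, ribosomal protein genes lie farthest to the right in the mutant comparison, at 0.792, and farthest to the left, at 0.160, between the wild-type replicates.

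Genes of ribosomal proteins differed less between the libraries than other genes did. In them 228 of 459 crossings were spliced in prp2-1 (49.7%, 95% Wilson interval 45.1 to 54.2) and 292 of 531 in wild type (55.0%, 50.7 to 59.2). In all other genes the shares were 30.1% (29.1 to 31.1) and 52.0% (51.0 to 52.9). The common odds ratios were 0.792 (0.596 to 1.05) and 0.349 (0.315 to 0.387), a ratio of 2.27 (1.68 to 3.07). This was the single contrast of 9 to pass the adjusted threshold of 0.05, in a test on the reads of these libraries. Without repeated names the ratio was 2.30 (1.63 to 3.23). In 6 of 6 sequencing cells the fall was smaller in ribosomal protein genes than in the others. Small-subunit genes had 116 of 242 spliced in prp2-1 and 125 of 234 in wild type, and large-subunit genes 112 of 217 and 167 of 297. Their odds ratios were 0.745 (0.503 to 1.10) and 0.847 (0.562 to 1.28), with intervals that overlap.

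Read ends moved with this result. In wild type 25.5% of intron-crossing reads of ribosomal protein genes ended more than 100 nt past the annotated gene, against 13.8% in prp2-1. For the other genes these shares were 6.94% and 4.70%. Such reads were mostly unspliced, with 24 of 144 crossings spliced in wild type and 13 of 68 in prp2-1 among ribosomal protein genes. With them left out, ribosomal protein genes had 69.3% spliced in wild type and 55.0% in prp2-1. Their odds ratio was then 0.502 (0.358 to 0.703) against 0.341 (0.307 to 0.379) in the others, and the ratio of 1.47 (1.03 to 2.09) no longer passed the adjusted threshold. With the ending of the read as a stratum, an analysis chosen after the values were seen, the ratio was 1.76 (1.26 to 2.45). Between the 30 °C replicates the same contrast had a ratio of 0.279 (0.231 to 0.336), the opposite direction, with 85.1% spliced in replicate 1 and 48.6% in replicate 2. This class of genes thus also set the wild-type libraries apart.

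Among 10 ribosomal protein genes with at least 10 reads in both libraries, 7 had a lower share of fully spliced reads in prp2-1 and 3 a higher one, and rps3 was called. The median difference was -7.37 points, against -20.1 in the other 46 genes. rpl1602, of the large subunit, had 12 of 14 and 14 of 15, and rps2602, of the small subunit, 7 of 18 and 16 of 22. Several of these genes have a near-identical second copy in the genome, and how the aligner placed reads between copies is not given in the sources used here. The class was formed by gene symbols (rps, rpl and rpp), which also took in rpp1 and the RNase P subunit gene rpp40, with 1 and 0 crossing reads in prp2-1 and 5 and 1 in wild type.

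Other gene groups are described by counts, with no test of a difference from other genes. Over all genes the spliced shares were 31.1% in prp2-1 and 52.1% in wild type, and 813 of 1392 genes had a lower share of fully spliced reads. In the cytoskeleton list 13 of 86 crossings were spliced in prp2-1 (15.1%) and 71 of 106 in wild type (67.0%), and nda3 was the member tested and called. nda3 alone held 38 and 72 of these crossings, and with cdc4 it held most of them in both libraries. Of 5 members crossed in both libraries, 4 had a lower share of spliced crossings in prp2-1 and 1 a higher. The light chain gene cdc4, of myosin, had 3 of 31 crossings spliced and 9 of 13 in wild type, while nda2, for alpha-tubulin, had 4 of 4 and 6 of 7. Genes of the proteasome had 45 of 151 (29.8%) and 53 of 90 (58.9%), shares near those of all genes. Their odds ratio was 0.250 (0.109 to 0.573), lower than the 0.383 of all genes, which the interval contains. Of 16 proteasome genes crossed in both libraries, 12 had a lower share of spliced crossings, 2 a higher and 2 an equal share. The count over all genes above was of fully spliced reads, an unlike measure. Among the lower was rpt1, an ATPase of the regulatory particle, with 7 of 15 and 7 of 7. Among the higher was pre5, of the core particle, with 13 of 27 and 3 of 11.

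Spliceosome genes had 30 of 111 crossings spliced in prp2-1 (27.0%) and 88 of 160 in wild type (55.0%), shares near those of all genes. Their odds ratio was lower, 0.123 (0.0266 to 0.566), with an interval that contains the 0.383 of all genes. Of 28 such genes crossed in both libraries, 17 had a lower share of spliced crossings, 2 a higher and 9 an equal share. The 813 of 1392 over all genes counts fully spliced reads, so these counts are not of the same measure. The largest samples were prp39, of the U1 snRNP, with 3 of 15 and 16 of 21, prp3, of the U4/U6 snRNP, with 4 of 10 and 12 of 17, and lsm3, of the Lsm ring, with 1 of 15 and 8 of 12. Translation factors had 63 of 112 (56.2%) and 103 of 155 (66.5%). Their odds ratio of 0.492 (0.238 to 1.02) has an interval that contains the 0.383 of all genes, and the 30 °C replicates had 335 of 398 and 76 of 152 crossings spliced. In this list tif301 stood beside tif307, of eIF3, with 1 of 7 and 10 of 13, and tif225, of eIF2B, with 0 of 6 and 9 of 9. Genes of the respiratory chain had 21 of 71 and 28 of 72. At 30 °C the replicates had 63.5% and 44.4% in the cytoskeleton list and 55.0% and 38.7% in the proteasome list, so wild-type libraries lay apart in the same lists.

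Reads that crossed several introns showed how retention was spread along a molecule. Of 2017 prp2-1 reads crossing at least 2 introns, 17.3% had lost every intron, 58.7% had kept every intron and 24.0% were partly spliced. Of 2758 wild-type reads the shares were 40.4%, 38.9% and 20.7%. The partly spliced share was 3.31 points higher in prp2-1 (0.917 to 5.72), and 3.76 points higher (1.19 to 6.36) without repeated names. Between the 30 °C replicates it differed by -0.973 points (-2.96 to 1.06).

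A larger difference appeared among reads in which splicing had begun, a measure chosen after the values were seen. This measure can rise merely because each intron is removed less often, so it is not separate from the lower spliced share. How much of the difference this makes up was not tested. Of 833 prp2-1 reads with at least 1 of their introns removed, 485 or 58.2% still held another, against 572 of 1686 or 33.9% in wild type. The difference was 24.3 points (95% Newcombe interval 20.2 to 28.3), and 25.2 (20.8 to 29.5) without repeated names. It lay between 17.9 and 34.1 points within sequencing cells. Stratified by gene and crossed introns, the odds ratio was 3.57 (2.74 to 4.64). The 30 °C replicates had 22.2% and 27.1%, a difference of 4.94 points (1.94 to 8.01) and an odds ratio of 1.46 (1.14 to 1.88). The value of prp2-1 was above those of the 3 wild-type libraries, and its distance from wild type at 37 °C was larger than that between the 30 °C replicates.

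**Figure D4:**
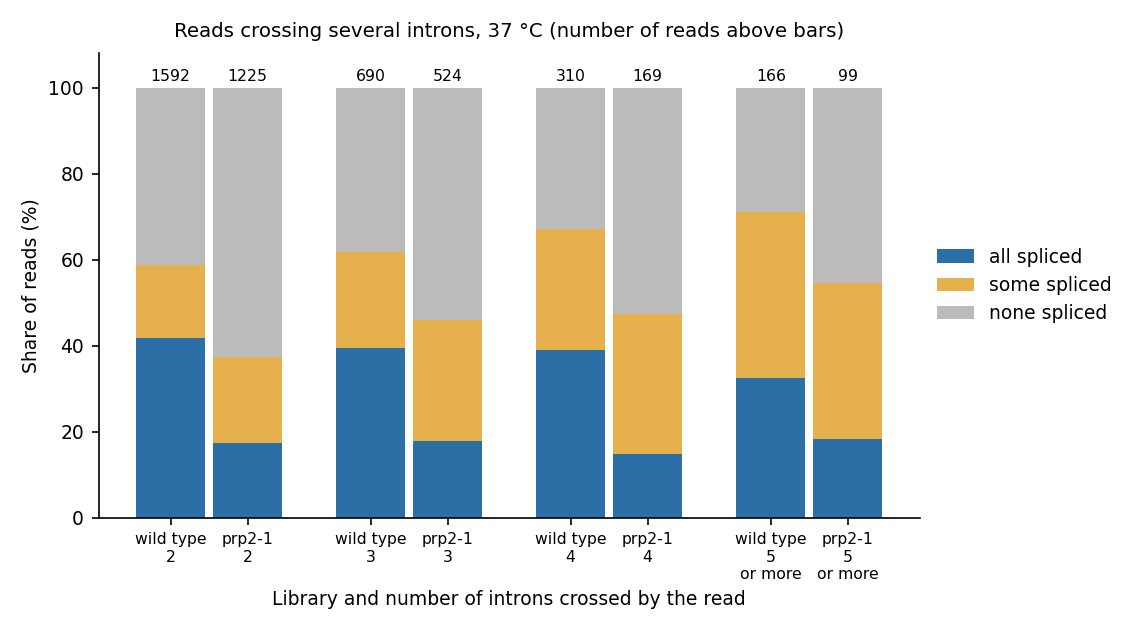
Shares of reads (percent, y axis) with all, some or none of their crossed introns spliced, for reads crossing 2, 3, 4 or 5 and more introns in wild type and prp2-1 at 37 °C, with the number of reads above each bar. The share with all introns spliced is lower in prp2-1 in each pair of bars, 17.3% against 41.8% for 2 introns and 18.2% against 32.5% for 5 or more.

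Adjacent introns were counted in the same reads, so their values restate this difference and are not a second result. Where the upstream intron of an adjacent pair had been removed, the downstream one had too in 69.7% of pairs in prp2-1 and 84.6% in wild type, with 86.2% and 89.9% at 30 °C. Where the upstream intron remained, the downstream one had been removed in 14.0% and 16.2% of pairs. Pairs of 1 read share that read and are not independent.

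Retention in prp2-1 was spread over all positions of a gene. Among reads crossing every intron of a 2-intron gene, 27.3% had lost the first and 29.3% the second, against 52.4% and 51.8% in wild type. In 3-intron genes the shares were 31.7%, 35.8% and 36.1%, against 51.7%, 52.9% and 51.7%. In 4-intron genes they lay between 30.7% and 37.6% in prp2-1 and between 56.1% and 60.3% in wild type. Of the partly spliced reads with a single switch, 177 prp2-1 reads had the 5′ introns removed and 211 the 3′ introns, so that 45.6% were 5′ first, against 51.2% in wild type. The odds ratio of 0.801 did not pass Fisher's exact test (p = 0.124). For replicate 2 over replicate 1 at 30 °C the odds ratio was 1.64 (p = 0.00184, Fisher's exact test), so this order also differed between wild-type libraries.

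The 4 genes with the most reads over at least 3 introns were cct6, gnd1, nda3 and cmk2. The last, a gene of a calmodulin-dependent kinase type, was not among the called genes. In prp2-1 its reads had intron 1 retained and both later introns removed in 8 cases and all removed in 6, and in wild type the same patterns had 2 and 6 reads. Its first intron was spliced in 7 of 19 prp2-1 reads and its second in 17 of 19, against 6 of 13 and 12 of 15 in wild type. gnd1 had 7 prp2-1 reads and 25 wild-type reads with all 4 introns removed, and its intron 2 was the least spliced in both libraries, with 7 of 21 and 25 of 32.

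Intermediates and errors of splicing were not detectably more frequent in the mutant. Reads ending within 1 nt of the last base of an exon upstream of an intron, the position of a freed 5′ exon after the first catalytic step, numbered 99 in prp2-1 and 159 in wild type. These were 1.13 and 1.41 per 100 crossings, with a common odds ratio of 0.899 (0.672 to 1.20). At 30 °C there were 6.40 per 100 crossings in replicate 1 and 5.81 in replicate 2. The odds ratio of replicate 2 over replicate 1 was 0.678 (0.595 to 0.772), so wild-type libraries lay apart in this measure. Gaps outside the annotation were rare in both libraries. Exon skipping made up 6 of 2823 gaps in prp2-1 and 23 of 6106 in wild type. An annotated 5′ site joined to another 3′ site made up 17 and 27 gaps, and another 5′ site joined to an annotated 3′ site 11 and 26. Of these and the gaps with neither site annotated, 0 of 4 classes passed Fisher's exact test (0 also at an unadjusted p under 0.05, the lowest adjusted p being 0.441). Shifted use of 3′ splice sites was 0.602% (0.376 to 0.962) of gaps in prp2-1 and 0.442% (0.304 to 0.643) in wild type.

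Reads per gene, scaled to 100000 reads assigned to genes on the read strand, were also compared. The RNA had been depleted of polyadenylated RNA, so these levels are not those of mature mRNA. With 1 library a side they have no test. Of 618 genes with at least 20 reads in the 2 libraries together, 59 (9.55%) were at least 2-fold higher in prp2-1 and 59 (9.55%) at least 2-fold lower. The counting interval of the ratio excluded 1 in 49 of the former and 30 of the latter. Between the 30 °C replicates 272 genes of 1217 were past 2-fold in one direction and 137 in the other. Genes with introns together had 0.897 times the wild-type level and genes without introns 0.970 times in the mutant library. Fewer cells with a transcript and less of it per cell cannot be told apart in these bulk samples.

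**Figure D5:**
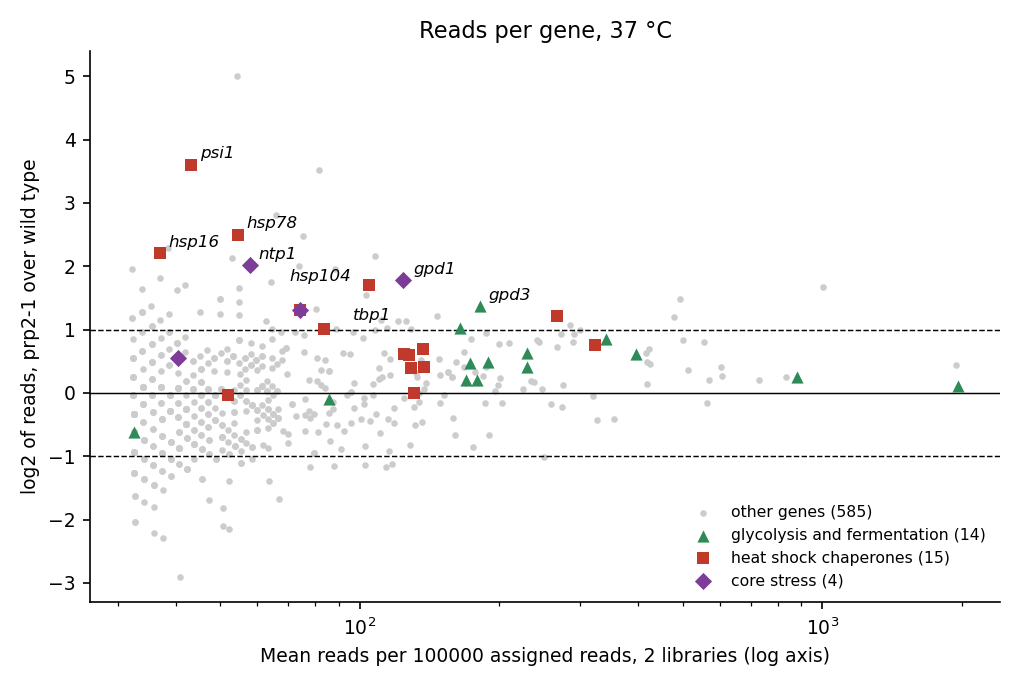
Log2 ratio of reads per gene, prp2-1 over wild type at 37 °C (y axis), against the mean of both libraries in reads per 100000 (log axis) for 618 genes; dashed lines mark 2-fold. Of the 15 heat shock chaperone genes (squares) 7 lie past 2-fold upward and 0 downward, against 9.55% each way of the 618 genes. Among the squares psi1 is the highest at 12.2-fold.

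Chaperone and stress genes had more reads in the mutant, although both cultures had been at 37 °C for the same time. Of 15 heat shock chaperone genes with enough reads, 7 were past 2-fold upward and 0 downward, against 9.55% each way over all 618 genes. Their median log2 ratio was 0.76, against -0.04 over all 618 genes. The list together had 752 reads in prp2-1 and 402 in wild type, 1.82 times the level. It was higher in 6 of 6 sequencing cells, by 1.61 to 2.55 times, and 1.83 times without repeated names. The 30 °C replicates differed 1.11-fold in this sum. psi1, a DnaJ-type co-chaperone, had 25 reads in prp2-1 and 2 in wild type, or 12.2-fold (3.04 to 106). hsp78, a mitochondrial disaggregase, had 29 and 5, and the small heat shock protein gene hsp16 19 and 4. hsp104, the cytosolic disaggregase, had 50 and 15, and the Hsp70 gene ssa2 117 and 49.

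Others of the list were close to equal, such as sks2, an Hsp70 of the ribosome, with 41 and 40, and mas5, a DnaJ-type protein, with 16 and 16. The core stress list gave the same direction, with 3 of 4 covered genes past 2-fold upward, against 9.55% over all genes. Its sum was 199 and 73 reads, a ratio of 2.66, higher in 6 of 6 cells. gpd1, which makes glycerol for osmotic defence, had 60 and 17 reads, ntp1, a trehalase, 29 and 7, and tps1, of trehalose synthesis, 33 and 13. Genes with fewer reads than required included the catalase gene ctt1 with 16 and 3. Between the 30 °C replicates the sum of this list differed by a factor of 0.535, so wild-type libraries lay nearly as far apart as 2-fold.

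Glycolytic genes together had more reads in the mutant. Of 14 covered genes 2 were past 2-fold upward, against 9.55% over all genes, with a median log2 ratio of 0.45 and a summed ratio of 1.27. The 30 °C replicates differed by a factor of 0.750 in this sum, which is farther from 1. The 2 genes were gpd3, a glyceraldehyde 3-phosphate dehydrogenase, with 82 and 31 reads, and fba1, the aldolase, with 69 and 33. gpd3 has 1 intron, and it was removed in 35 of 71 prp2-1 reads and 16 of 27 wild-type reads. Ribosomal protein genes had a summed ratio of 0.945 for the small subunit, above 1 in 3 of 6 cells and 0.982 without repeated names. Of its 20 covered genes 2 were past 2-fold upward, near the 9.55% over all genes. The large subunit had a ratio of 0.831, with 4 of 28 genes past 2-fold downward, against 9.55% over all genes. Between the 30 °C replicates these ratios were 0.882 and 0.795, at least as far from 1.

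The coding genes with the largest ratios besides these included an aldo-keto reductase gene, SPAC26F1.07, with 36 and 5 reads, SPAPB24D3.07c, of no described function, with 40 and 7, and prz1, the calcineurin-responsive transcription factor, with 20 and 4. SPBC409.08, annotated as a spermine transporter, had 55 and 12, and the RNA helicase gene dbp2 27 and 6. In the other direction stood pol1, the catalytic subunit of DNA polymerase alpha, at 4 and 19 reads. rar1, a methionine-tRNA ligase, had 4 and 18, arg4, of arginine synthesis, 6 and 26, and mam301 6 and 25. The replication nuclease gene dna2 and the rRNA processing gene pol5 each had 4 and 16, and the glucose transporter gene ght5 had 7 and 24. The mitotic phosphatase gene cdc25 had 0 reads in prp2-1 and 10 in wild type, fewer than the 20 reads required. Set against a limit of 3 counts in prp2-1 this is 3.42-fold lower, without the counting error of the wild-type reads.

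Non-coding RNA was a larger part of the mutant library. The 33 small nucleolar RNA genes with enough reads had 6 past 2-fold upward and 0 downward, against 9.55% each way over all genes. All small nucleolar RNA genes together were 1.40 times the wild-type level, between 1.35 and 1.48 within cells. In the 30 °C replicates the same sum differed by a factor of 0.381. sno12, an H/ACA-type snoRNA, had 208 and 88 reads, and the U2 snRNA gene snu2, whose product follows U2AF onto the intron, had 20 and 6. Per 100000 assigned reads, snu2 had 183.9 and 9.30 in the 30 °C replicates, a wider distance than that between the 37 °C libraries. Among long non-coding RNAs, SPNCRNA.1236 had 33 reads in prp2-1 and 1 in wild type. mamRNA, an RNA associated with the meiotic regulators Mmi1 and Mei2, is annotated in 2 overlapping versions, with 477 and 146 reads for the longer and 47 and 4 for the shorter. The longer version had 646 and 205 reads per 100000 in the 30 °C replicates. SPNCRNA.1263 and SPNCRNA.808 were lower, at 0.381 and 0.497 times the wild-type level.

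Reads that ran past the end of their gene were fewer in the mutant. More than 100 nt past the annotated end lay 4.76% of prp2-1 reads of genes with introns (4.34 to 5.21) and 7.401% of wild-type reads (6.91 to 7.93), a difference of -2.64 points (-3.31 to -1.98). In genes without introns the shares were 5.61% (5.26 to 5.98) and 7.403% (7.005 to 7.82). The 30 °C replicates had 3.03% and 5.22% in genes with introns, so the wild-type libraries also lay apart in this share. The median span of reads in genes with introns was 848 nt in prp2-1 and 978 nt in wild type, and its part in these shares was not tested.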

How the data were processed

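Aligned long reads were used as the authors deposited them, as 1 BED-like table of blocks per library. The deposited score column holds 40 in every line and was not used as a measurement. Columns with read positions, names and blocks, deposited by the authors, hold coordinates rather than a unit of expression. The aligner and genome build are not given in the sources used here; cutadapt 1.8 is named without a role in the submitters' processing notes. Blocks were compared with the ASM294v3 annotation (RefSeq), which also gave the printed sequences. Mitochondrial reads were not assigned to genes.

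Reads were assigned to genes on their strand. Introns were scored as the report describes, with gaps of at least 20 nt. Shares have Wilson intervals, their differences Newcombe intervals, and common odds ratios Mantel-Haenszel estimates with Robins-Breslow-Greenland errors. Tests were Fisher's exact test (two-sided) and a normal test of log odds ratios, with Benjamini-Hochberg adjustment and a threshold of 0.05, in Python 3.11.15 with scipy 1.17.1 and numpy 2.4.6. Scripts were tested on data simulated from the read numbers of these libraries. The gene test called 4 of 20 genes simulated with a change in splicing and 0 of 36 without one. Genes that were not called may therefore still differ. In reads per gene, 169 of 178 genes simulated with a change and 40 of 463 without one were past 2-fold. Because each condition has 1 library, p-values concern the reads of these libraries, and PCR copies could not be removed, so intervals and limits from a count of 0 (3 counts) cover counting error only.

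Members and gene lists were chosen with earlier results of these data known. Named genes are those called, the 6 with the highest fully spliced share in prp2-1 at 15 or more reads, up to 8 with the largest read ratio each way whose counting interval excludes 1, the list members, and the 4 with most reads over 3 or more introns. Alternatives changed read names kept, the reach past an intron, minimum reads, reads past the gene and the scaling. A gene that this rule names is not reported here.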

Additional observations from a re-analysis of the deposited data

Results flagged for a closer look

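Mitochondrial reads lie outside the comparisons above and were more frequent in prp2-1 than in wild type at 37 °C. They made up 5.48% of the prp2-1 library (95% Wilson interval 5.24 to 5.73) and 3.15% of the wild-type library at 37 °C (2.96 to 3.34). The 30 °C wild-type replicates held 9.86% and 1.91%, so the prp2-1 value lay between those of wild-type libraries.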

How the results depend on the processing

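Of the main results under an alternative, 47 kept their direction and call, 10 counts moved by more than 1.5 times, 1 test lost its call and 0 reversed. Counts of called genes and introns depended on the reads required. Without repeated read names 2 of 34 genes and 0 of 45 introns were called. With at least 5 reads 2 of 220 genes and 5 of 291 introns were called, and with at least 20 reads 3 of 7 genes and 4 of 10 introns. Of the intron class contrasts 0 were called when ribosomal protein genes were left out (8 contrasts) and 0 without the reads that ran past their gene, where the ribosomal protein contrast was 1.47 and no longer passed. Genes past 2-fold in reads numbered 27 of 164 with at least 50 reads summed and 434 of 1506 with at least 10. The cause was not tested, except that fewer reads and other numbers of tested genes follow from these settings. For single genes, 55 values kept their call and 16 lost it. None changed sign, and the difference of chc1, not called, was 0 with identical alignments counted once. No paired analysis was possible because each condition at 37 °C has 1 library. Depth limited the tests of single genes, of which 56 had 10 reads in both libraries.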
